A study of Mus musculus with 29 samples.

Results

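The comparison described here is the change of the genotype effect between 2 ages of the fetal mouse ovary. For each gene it is the difference between p27null and WT ovary at embryonic day 18.5 (E18.5) minus the same difference at E13.5, on a log2 scale, and it is called the interaction below. It was estimated in 1 fit of the 15 embryonic samples among the 29 of the series, which also holds ovaries from after birth. The 4 groups were WT ovary at E13.5 (4 samples), p27null ovary at E13.5 (3 samples, numbered 1, 3 and 4 in the labels), WT ovary at E18.5 (4 samples) and p27null ovary at E18.5 (4 samples). By the labels, WT is Cdkn1b +/+ and p27null is Cdkn1b -/-, and all samples are whole ovary dissociated with papain, from which RNA of the freed cells was sequenced. The labels name no other allele, treatment, strain, litter or batch, and do not say whether an animal or a pool of ovaries gave each sample. By its header the count table joins 2 projects without assigning samples to them, so a difference between projects was not tested. Nothing says that the samples came from separate animals, so p-values measure only the spread between these samples, which may be technical. A positive interaction means that, relative to WT, a gene stood higher in p27null ovary at E18.5 than it did at E13.5, or, in the same numbers, that it fell less or rose more with age in p27null than in WT.

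Cdkn1b encodes p27Kip1, which binds complexes of cyclins and cyclin-dependent kinases (CDKs) and holds back entry into S phase. Active CDKs phosphorylate the retinoblastoma proteins, which frees E2F factors to switch on genes of DNA replication, while genes of mitosis are kept down in resting cells by the DREAM complex and switched on later by B-Myb and FOXM1. In the fetal mouse ovary around E13.5 the germ cells stop dividing and begin to enter meiosis, and by E18.5 many are in late meiotic prophase. The somatic pregranulosa cells around them progressively leave the cell cycle as they form follicles, and p27 is one of the inhibitors that they come to express. In bulk RNA of a whole organ, more cells of a type and more RNA per cell cannot be told apart.

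Library totals ran from 14.1 to 24.9 M counts, so that the floor of 3 counts lay between 0.121 and 0.213 CPM (the count scaled to 1 M of the library total), a limit that covers counting error only. Germ cell markers (summed level 362 to 886 CPM in WT and 270 to 568 CPM in p27null at E18.5) and pregranulosa markers (441 to 620 and 476 to 646 CPM) were present in every embryonic library. Several libraries stood apart. WT E13.5 replicate 3 held 18.97% haemoglobin transcripts, against 0.702% to 1.05% in the other WT libraries of that age. Among the p27null libraries, E13.5 replicates 3 and 4 lay closer to the E18.5 libraries than the other E13.5 libraries did on the first principal component, and E18.5 replicate 1 lay closer to the E13.5 libraries than the other E18.5 libraries did. At E18.5, the libraries numbered 1 and 3 were separated from those numbered 2 and 4 by their haemoglobin and mitochondrial shares, in both genotypes. Counts with and without these libraries are given where they matter.

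The targeted gene was low in every library labelled p27null. Cdkn1b (ENSMUSG00000003031) was at 26.1, 20.3, 25.1 and 27.1 CPM in the WT libraries and 4.64, 4.99 and 4.75 CPM in the p27null libraries at E13.5. At E18.5 it was at 130.0, 103, 102 and 105 CPM in WT and 10.1, 16.7, 12.3 and 14.6 CPM in p27null. The genotypes did not overlap at either age, and the labels do not say which part of the gene is missing, so the remaining counts are given as measured. The genotype effect on Cdkn1b was -2.36 ± 0.18 at E13.5 and -3.04 ± 0.16 at E18.5 (log2, SE), and in WT its level changed by 2.16 (log2) with age. The interaction of Cdkn1b itself was -0.68 ± 0.22 (log2, SE, 95% interval -1.15 to -0.20, edgeR adjusted p = 0.301), which did not pass the threshold.

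Genes of DNA replication, mitosis and chromosome structure made up most of the genotype effects gained before birth, and edgeR called nearly all of them in 1 direction. Of 18052 genes tested, 76 (0.421%) had an interaction with an edgeR adjusted p under 0.05. Of these, 74 (0.41% of genes tested) were positive and 2 (0.0111%) were negative. The split was 248 positive and 55 negative with DESeq2, 112 and 22 with all 29 samples in 1 fit, and 38 and 17 without p27null E13.5 replicate 1. Of the 74, 42 were on one of the gene lists, all but Slfn9 on lists of replication, the cell cycle, chromosome structure or repair. The lists were chosen with earlier results of these data known, so this count describes the 74 and is no separate test. For the 74, the interaction ran from 0.59 to 1.81 with a median of 1.13 (log2), while the median over all genes tested was -0.0013. Their genotype effect at E13.5 had a median of 0.04 and lay within 0.25 of 0 for 71 of them, and at E18.5 the median was 1.19, a 2.28-fold higher level in p27null. All genes tested had median effects of 0.01 at E13.5 and -0.03 at E18.5. In the E18.5 comparison on its own, 501 genes (2.78%) were called higher and 53 (0.294%) lower in p27null, whereas at E13.5 1 gene (0.00554%) was called, and that gene was Cdkn1b. The E13.5 count was 159 with DESeq2 and 44 in edgeR without WT E13.5 replicate 2. These comparisons share samples with the interaction, so their calls are given side by side and not as further evidence. In 74 of 74 genes every p27null library at E18.5 was above every WT library of that age. Of all genes tested, 1575 (8.72%) showed this arrangement. At E13.5 it held for 2 of the 74, against 369 of all genes tested (2.04%). Because the genes were called with these libraries, the arrangement describes them and is no separate test.

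**Figure D1:**
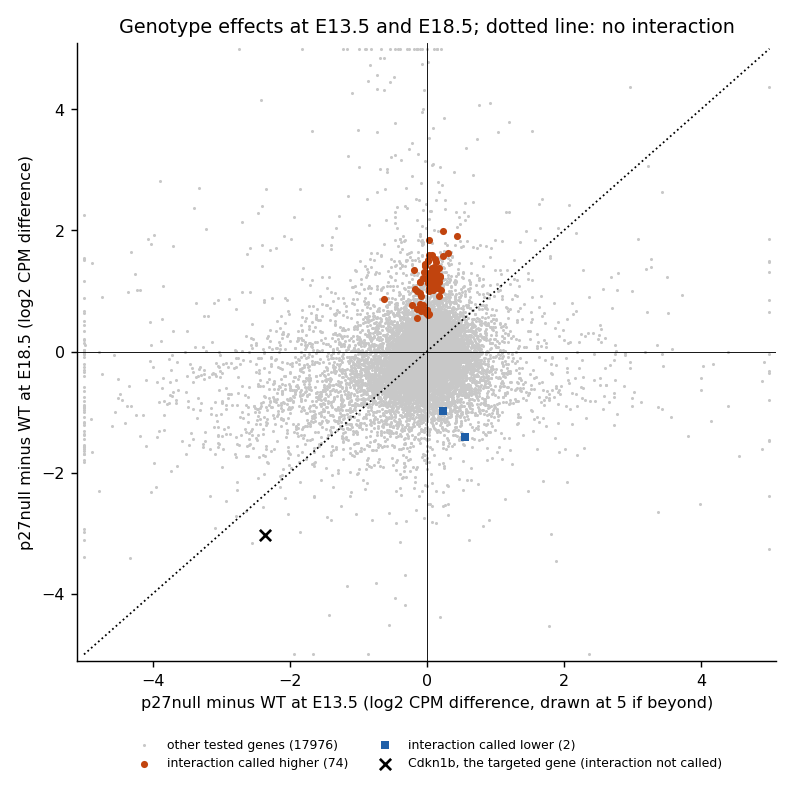
Genotype effect at E18.5 (vertical axis, log2) against genotype effect at E13.5 (horizontal axis, log2) for each gene tested, with genes called for the interaction marked. The 74 genes called higher sit near 0 on the E13.5 axis and above it on the E18.5 axis, with medians of 0.04 and 1.19.

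Promoters of 4 called genes are shown because replication and mitotic genes are known for the promoter elements that E2F and DREAM proteins recognise, and because the called genes moved together. The sequences are RefSeq promoter windows on GRCm38.p6, cut to the 250 bases before the annotated start and printed 5′ to 3′ on the gene's strand. Capitals mark matches to a searched motif, on either strand (ATTGG is CCAAT on the opposite strand). Cdc20 (activator of the anaphase-promoting complex) lies downstream of chr4:118437344-118437593 (minus strand), Racgap1 (a regulator of the contractile ring) of chr15:99651657-99651906 (minus strand), Prc1 (a microtubule bundler of the central spindle; the first of its 2 windows is shown) of chr7:80294201-80294450 (plus strand), and Mcm3 (a subunit of the replicative helicase) of chr1:20820313-20820562 (minus strand).
Cdc20: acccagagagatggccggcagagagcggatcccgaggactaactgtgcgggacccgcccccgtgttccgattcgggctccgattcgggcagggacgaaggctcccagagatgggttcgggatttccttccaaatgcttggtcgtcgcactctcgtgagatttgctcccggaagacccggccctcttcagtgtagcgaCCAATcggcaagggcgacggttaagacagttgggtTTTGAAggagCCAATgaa
Racgap1: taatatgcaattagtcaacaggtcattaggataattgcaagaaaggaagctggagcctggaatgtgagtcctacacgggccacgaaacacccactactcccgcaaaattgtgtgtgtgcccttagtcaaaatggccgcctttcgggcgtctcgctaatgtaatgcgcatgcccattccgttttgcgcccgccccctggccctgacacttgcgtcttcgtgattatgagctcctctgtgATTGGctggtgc
Prc1: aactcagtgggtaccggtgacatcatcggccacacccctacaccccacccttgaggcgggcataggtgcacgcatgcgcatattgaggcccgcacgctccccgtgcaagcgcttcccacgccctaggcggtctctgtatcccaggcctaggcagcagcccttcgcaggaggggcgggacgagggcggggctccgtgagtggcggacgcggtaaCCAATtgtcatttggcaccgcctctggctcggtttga
Mcm3: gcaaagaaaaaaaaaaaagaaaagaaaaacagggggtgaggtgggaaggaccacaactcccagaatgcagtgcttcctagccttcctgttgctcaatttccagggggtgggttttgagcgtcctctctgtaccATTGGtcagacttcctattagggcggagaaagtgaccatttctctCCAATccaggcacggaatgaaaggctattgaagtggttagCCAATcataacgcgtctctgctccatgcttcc

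Windows of 300 bases, 250 before and 50 after the start, were matched by symbol for 57 of the 74 genes. The CHR element (TTTGAA), which DREAM binds in mitotic promoters, was found in a window of 27 of the 57 (47.4%), against 14.6% of the 12653 genes tested that had a window. An E2F site (TTTGGCGC, TTTCCCGC, TTTCGCGC or TTTGCCGC) was found for 10 (17.5%), against 4.35%. The CCAAT box (CCAAT), bound by NF-Y, was found for 35 (61.4%), against 42.7%. The motif of the meiotic factors STRA8 and MEIOSIN (CNCCTCAG) was found for 5 (8.77%), against 10.8%. Over all windows of this length in the table the shares were 17.9% for CHR, 2.26% for E2F, 37.4% for CCAAT and 7.94% for CNCCTCAG. Both strands were searched, matches to different motifs may overlap, and no test was made. In the sequences above, Cdc20 carried 2 CCAAT boxes and 1 CHR, Mcm3 carried 3 CCAAT boxes, and Racgap1 and Prc1 carried 1 CCAAT box each. Matches that reach past the start are not printed but count in the shares. They were the E2F sites TTTGGCGC and TTTCCCGC in Mcm3, a CHR in Racgap1, and a CHR across the start in Prc1. A match is a run of letters and says nothing of binding in these ovaries.

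Replication licensing, the loading of the MCM helicase onto origins before S phase, was represented by 9 called genes among 32 listed and tested, all positive. With 1 library left out, 5 to 11 of the list were called, and it was 5 without p27null E18.5 replicate 3 or 4 or p27null E13.5 replicate 1 or 4. The list had a median interaction of 0.56, with 29 of 32 genes positive. Cdc6, which loads the helicase together with Cdt1, had the most positive value of all 74 genes. It was measured at 68.2, 72.2, 68.5 and 75.8 CPM in the WT libraries and 67.9, 80.7 and 69.2 CPM in the p27null libraries at E13.5, and at 24.3, 13.2, 18.9 and 15.7 CPM in WT and 55.2, 52.5, 85.8 and 64.0 CPM in p27null at E18.5. The genotypes overlapped at E13.5, and at E18.5 the lowest p27null library was above the highest WT library. The interaction of Cdc6 was 1.81 ± 0.26 (log2, SE, 95% interval 1.25 to 2.36, edgeR adjusted p = 0.00692). Cdt1 was at 61.2, 63.1, 67.6 and 56.7 CPM in the WT libraries and 61.1, 70.3 and 57.9 CPM in the p27null libraries at E13.5, and at 18.2, 19.4, 14.8 and 21.9 CPM in WT and 43.1, 53.7, 59.0 and 55.9 CPM in p27null at E18.5. Its WT libraries lost most of their E13.5 level while the p27null libraries stayed nearer to it, and the interaction was 1.49 ± 0.19 (log2, SE, 95% interval 1.08 to 1.90, edgeR adjusted p = 0.00427).

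Genes of the helicase itself were called too. Mcm3 was at 304, 294, 284 and 305 CPM in the WT libraries and 280.2, 348 and 295 CPM in the p27null libraries at E13.5. At E18.5 it was at 105, 102, 79.5 and 99.9 CPM in WT and 201, 226, 255 and 253 CPM in p27null, so the groups did not overlap at E18.5 and p27null was below its own E13.5 libraries. The interaction was 1.22 ± 0.16 (adjusted p = 0.00456), that of Mcm7 1.10 ± 0.16 (adjusted p = 0.00692), that of Mcm4 0.98 ± 0.15 (adjusted p = 0.00812), that of Mcm6 1.02 ± 0.17 (adjusted p = 0.0161) and that of Mcm2 1.16 ± 0.23 (adjusted p = 0.0374). These 5 are subunits of the hexamer MCM2 to MCM7, and the remaining one, Mcm5, had 0.95 ± 0.22 (adjusted p = 0.0818) and did not pass. Mcm10, which helps to fire the helicase, had 1.53 ± 0.31 (adjusted p = 0.0434), and Timeless, of the fork protection complex, 1.14 ± 0.20 (adjusted p = 0.0216). Gmnn, which encodes the inhibitor of Cdt1 geminin, was not called at 0.19 ± 0.28 (adjusted p = 0.896).

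At the replication fork, 4 of 38 listed genes were called higher, with a list median of 0.67 and 37 of 38 positive. The count was 13 without WT E18.5 replicate 1 and 2 without WT E18.5 replicate 3, p27null E18.5 replicate 3 or 4, WT E13.5 replicate 1 or 2, or p27null E13.5 replicate 1 or 4. Chaf1b, a subunit of the chromatin assembly factor that places histones on new DNA, was at 92.3, 98.3, 77.2 and 85.7 CPM in the WT libraries and 91.8, 96.2 and 91.2 CPM in the p27null libraries at E13.5, and at 30.5, 21.7, 26.2 and 28.0 CPM in WT and 66.4, 62.6, 71.1 and 76.4 CPM in p27null at E18.5. No p27null library at E18.5 overlapped the WT range, and the interaction was 1.304 ± 0.17 (log2, SE, 95% interval 0.95 to 1.66, edgeR adjusted p = 0.00427). Pola1, the catalytic subunit of the polymerase that lays down primers, had 1.09 ± 0.18 (adjusted p = 0.0129), Rrm1, a subunit of the ribonucleotide reductase that makes deoxynucleotides, 1.02 ± 0.18 (adjusted p = 0.0188), and Atad2, a chromatin factor bound to acetylated histones, 0.88 ± 0.18 (adjusted p = 0.0415). The other 34 did not pass. Among them, Rrm2, the partner of Rrm1, had a value of 1.49 ± 0.38 and Pcna, the sliding clamp, 0.62 ± 0.16 (adjusted p = 0.128 and 0.14). All 38 of the genes were higher in p27null at E18.5 by the sign of the fitted effect, against 46.05% of all genes tested. In that comparison 31 of them were called higher, against 2.78% of all genes tested.

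Among 33 cyclins, cell cycle kinases, E2F factors and pocket proteins, 3 were called, Ccnb1, Ccnb2 and Cdc25c. The count was 8 without WT E18.5 replicate 1 and 1 without WT E18.5 replicate 2, 3 or 4, p27null E18.5 replicate 3 or 4, WT E13.5 replicate 1, 2 or 4, or any p27null E13.5 library. Ccnb1, which encodes cyclin B1, the partner of CDK1 in mitosis, was at 433, 409, 418 and 416 CPM in the WT libraries and 398, 382 and 458 CPM in the p27null libraries at E13.5. At E18.5 it was at 103, 69.3, 89.5 and 59.9 CPM in WT and 201, 181, 263 and 228 CPM in p27null. Its level fell in both genotypes, by 2.38 in WT and by 0.92 in p27null on the log2 scale, and the interaction was 1.46 ± 0.23 (log2, SE, 95% interval 0.98 to 1.95, edgeR adjusted p = 0.00812). Cdc25c, a phosphatase that activates CDK1, had 1.29 ± 0.25 (adjusted p = 0.032), and Ccnb2, cyclin B2, 0.80 ± 0.16 (adjusted p = 0.0419). Cdk1 lay just outside the threshold with 0.86 ± 0.18 (adjusted p = 0.0539). Of the genes that act at the step where p27 is best known, Ccne1 had 1.09 ± 0.28 (adjusted p = 0.126), Cdk2 0.40 ± 0.17 (adjusted p = 0.428), Cdk4 0.10 ± 0.15 (adjusted p = 0.893), E2f1 0.36 ± 0.26 (adjusted p = 0.716) and Rb1 0.05 ± 0.29 (adjusted p = 0.982), and none of these passed. Ccnd2, cyclin D2 of granulosa cells, had a negative value of -0.50 ± 0.24 (adjusted p = 0.532) and was among the genes called lower at E18.5 (-0.81 ± 0.17, adjusted p = 0.0122). The list median was 0.39.

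Genes of the spindle, mitotic kinases and cytokinesis held the most calls, 20 of 45, all positive, with a list median of 1.02 and 43 of 45 positive. With 1 library left out the count was 10 to 25. It was 10 without p27null E13.5 replicate 4, and 12 or 13 without p27null E13.5 replicate 1 or 3, p27null E18.5 replicate 3 or 4, or WT E13.5 replicate 1 or 2. Without both E13.5 libraries numbered 3 it was 4, and with the E18.5 libraries numbered 1 and 3 alone it was 0. Cdc20 (ENSMUSG00000006398) had the smallest p of all genes. It was at 159.6, 162, 169.9 and 191 CPM in the WT libraries and 159.6, 177 and 186 CPM in the p27null libraries at E13.5, and at 49.7, 43.8, 43.8 and 39.2 CPM in WT and 122, 136, 144 and 134 CPM in p27null at E18.5. At E13.5 the genotypes overlapped, and at E18.5 Cdc20 was 3.03-fold higher in p27null with no overlap. The interaction of Cdc20 was 1.57 ± 0.14 (log2, SE, 95% interval 1.26 to 1.88, edgeR adjusted p = 0.000231). Racgap1 was at 146, 133, 120.3 and 125 CPM in the WT libraries and 149, 145 and 136 CPM in the p27null libraries at E13.5, and at 60.9, 43.6, 51.4 and 44.4 CPM in WT and 134, 133, 168 and 147 CPM in p27null at E18.5. Prc1, which works with it at the central spindle, was at 177, 156, 164 and 161 CPM in the WT libraries and 162, 169.9 and 169 CPM in the p27null libraries at E13.5, and at 85.4, 61.2, 82.4 and 63.0 CPM in WT and 174, 188, 252 and 209.9 CPM in p27null at E18.5. For both, WT fell with age, and the p27null libraries at E18.5 lay around or above the E13.5 range. Their interactions were 1.41 ± 0.17 (adjusted p = 0.00427) for Racgap1 and 1.47 ± 0.19 (adjusted p = 0.00427) for Prc1.

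Plk1, the polo-like kinase that drives mitotic entry and chromosome separation, was at 136, 142, 126 and 125 CPM in the WT libraries and 136, 135.4 and 145 CPM in the p27null libraries at E13.5, and at 42.9, 28.7, 39.7 and 31.5 CPM in WT and 86.3, 97.6, 129 and 119.9 CPM in p27null at E18.5. WT lost more than p27null, with no overlap at E18.5, and the interaction was 1.53 ± 0.21 (log2, SE, 95% interval 1.09 to 1.97, edgeR adjusted p = 0.00521). The other 16 called genes of the list had interactions between 0.96 and 1.45. They include the Aurora kinases Aurka (1.35 ± 0.20) and Aurkb (1.45 ± 0.22) with Incenp (1.07 ± 0.18) and Cdca8 (1.17 ± 0.17), the partners of Aurora B in the chromosomal passenger complex. They also include the mitotic kinesins Kif20a, Kif2c, Kif22 and Kif4, the checkpoint kinase gene Bub1b, the spindle assembly factor Tpx2, and Ect2 and Anln, which build the contractile ring. Tacc3, a spindle microtubule protein, was among the called genes nearest the threshold at 0.96 ± 0.20 (adjusted p = 0.048), and Kifc1, a spindle motor, lay just outside at 1.06 ± 0.22 (adjusted p = 0.056). Of the 45 genes, 37 were called higher in p27null at E18.5 on its own, where 2.78% of all genes tested were.

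**Figure D2:**
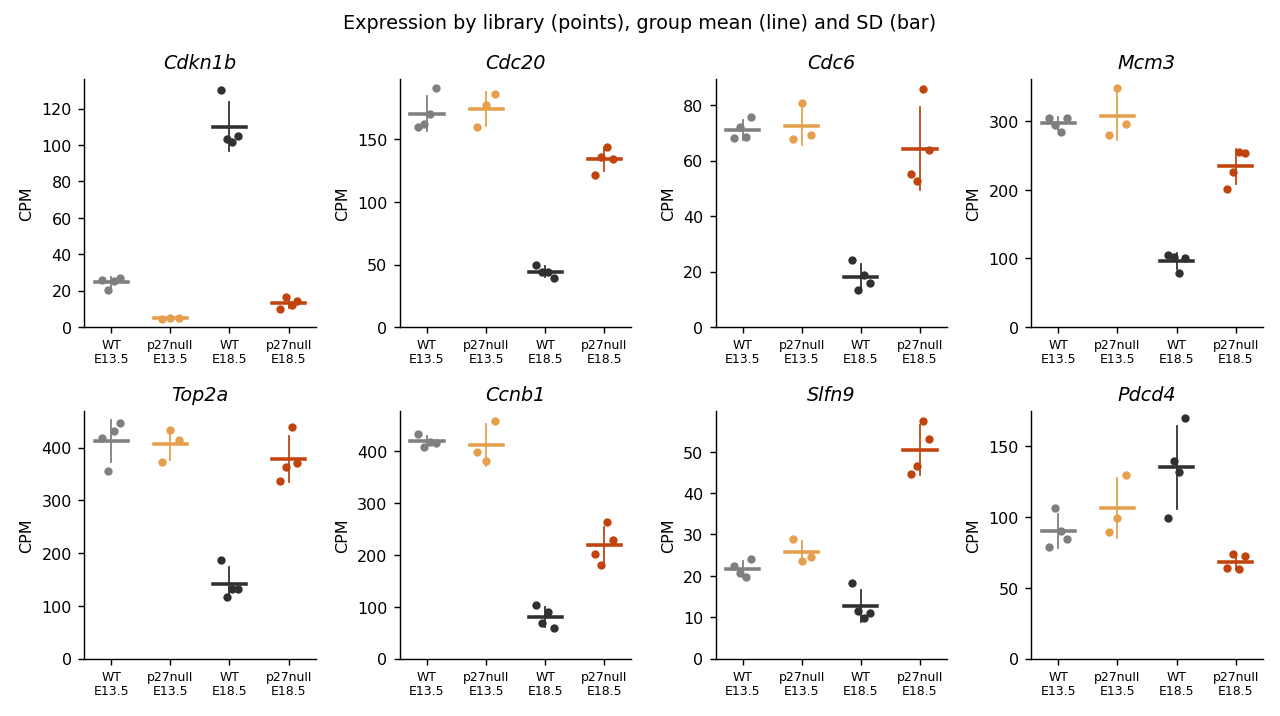
Level (CPM, linear axis from 0) of Cdkn1b, 6 genes called higher and Pdcd4 in each of the 15 embryonic libraries (points), with the mean (line) and SD (bar) of each group by genotype and age. For the 6 genes the WT and p27null points lie together at E13.5 and the p27null points lie above the WT points at E18.5, as for Cdc20 with 39.2 to 49.7 CPM in WT and 122 to 144 CPM in p27null.

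Chromosome structure and repair contributed fewer calls. Of 14 listed genes of condensin and chromosome structure, 4 were called, with a list median of 0.81 and 14 of 14 positive. With 1 library left out 2 to 5 were called, with 2 called without p27null E13.5 replicate 3 or 4. Top2a, the topoisomerase that untangles sister chromatids, was at 419, 356, 431 and 447 CPM in the WT libraries and 373, 434 and 415 CPM in the p27null libraries at E13.5, and at 188, 117, 132 and 133 CPM in WT and 338, 363, 439.5 and 372 CPM in p27null at E18.5. The p27null libraries at E18.5 spanned much the same range as both genotypes at E13.5, and the interaction was 1.43 ± 0.20 (log2, SE, 95% interval 1.00 to 1.86, edgeR adjusted p = 0.00692). Ncapd2 and Ncaph, subunits of condensin I, had 1.25 ± 0.20 (adjusted p = 0.0129) and 1.12 ± 0.19 (adjusted p = 0.0161), and Lmnb1, of the nuclear lamina, 1.05 ± 0.21 (adjusted p = 0.0384). Among 20 genes of homologous recombination repair and the Fanconi pathway, Exo1, a nuclease that resects DNA ends, was called at 1.20 ± 0.17 (adjusted p = 0.00692), with 4 genes of the list called without WT E18.5 replicate 1, and the list median was 0.56. Brca1 was not called at 0.84 ± 0.24 (adjusted p = 0.198). No gene of the centromere and kinetochore passed among 31, where the smallest p belonged to Ska3 at 0.83 ± 0.18 (adjusted p = 0.0694). Of those 31, 29 were positive, 18 had an unadjusted p under 0.05, and the median was 0.55. Over all genes tested, 9.83% had an unadjusted p under 0.05 in either direction.

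Of the 74 genes called higher, 32 were on none of the lists, and their grouping below was made after their values were seen. Of these, 10 are further genes of mitosis and cell division (Pbk, Melk, Fam83d, Sgo2a, Cdca2, Cdca3, Cdca5, Cep55, Gtse1 and Ckap2l), with interactions from 0.93 to 1.34. Msh6 of mismatch repair, the uracil glycosylase gene Ung, Parp1 and the replication nuclease gene Dna2 ran from 0.69 to 1.19. Rcc1 and Rangap1, which set the Ran gradient, the importin gene Kpna2 and the nuclear pore gene Ndc1 ran from 0.74 to 1.04. Shmt1 and Mthfd1, of the folate cycle that supplies thymidylate, and Ppat, which starts purine synthesis, ran from 0.66 to 0.93. Stmn1 and Tuba1b, of the microtubule pool, had 0.98 and 0.96. Hist1h2ae, Nmral1, Gtf3c5 and Sae1 ran from 0.59 to 1.34. Hist1h2ae and Tuba1b have near-identical copies among which RSEM shares reads, so their values are uncertain.

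Read along age, the called effect was a smaller fall in p27null than in WT for most genes. By group means, 62 of the 74 were lower at E18.5 in both genotypes, 8 were lower in WT and higher in p27null, and 4 were higher in both. The change from E13.5 to E18.5 passed the test as a fall for 70 of 74 in WT, against 3722 of all genes tested (20.6%), and for 31 of 74 in p27null, against 2372 (13.1%). Over the 74 genes, the median change from E13.5 to E18.5 was a 2.67-fold fall in WT and a 1.22-fold fall in p27null. For the 70 genes with a fall in the WT means, p27null showed a median of 22.0% of that fall on the log2 scale, and under 50% of it in 69. Prc1 was one whose mean was higher at E18.5 in p27null, by 0.30 ± 0.14, where WT changed by -1.17 ± 0.13 (log2, SE). At the other end, Ccnb1 was lower at E18.5 in both. Since the interaction is the difference of these age changes, they restate it and add no support.

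**Figure D3:**
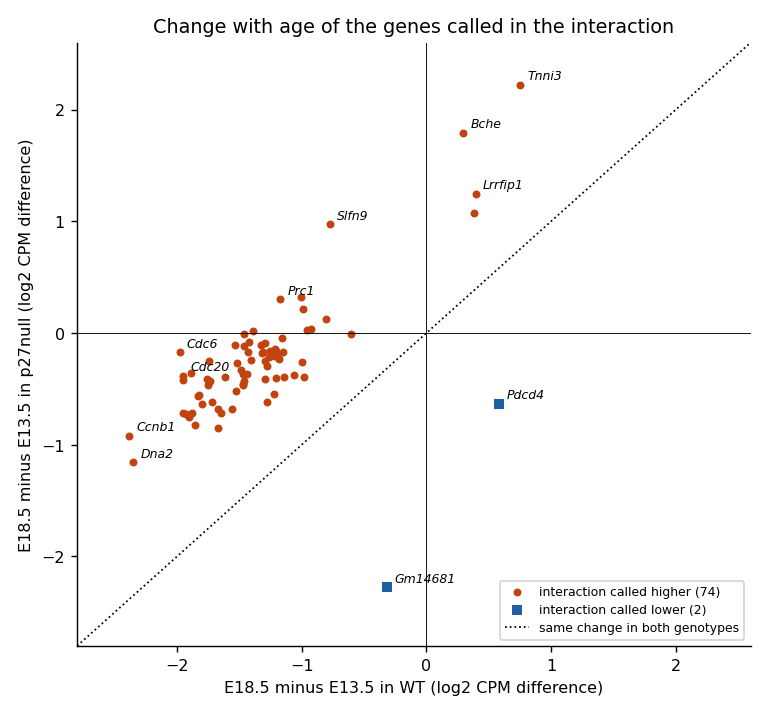
Change from E13.5 to E18.5 in p27null (vertical axis, log2) against the change in WT (horizontal axis, log2) for the called genes, with the line of equal change. The genes called higher lie above the line, with medians of -1.42 in WT and -0.28 in p27null.

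Slfn9 differed from this course. It belongs to the Schlafen family, whose members are known from lymphocyte quiescence and interferon responses. It was at 22.3, 20.8, 19.6 and 24.2 CPM in the WT libraries and 28.9, 23.7 and 24.5 CPM in the p27null libraries at E13.5, and at 18.4, 11.6, 9.87 and 11.0 CPM in WT and 44.5, 46.5, 57.5 and 52.99 CPM in p27null at E18.5. From E13.5 to E18.5 its level changed by -0.77 in WT and 0.97 in p27null, and the interaction was 1.75 ± 0.26 (log2, SE, 95% interval 1.20 to 2.30, edgeR adjusted p = 0.00692). Schlafen genes lie in a cluster of close copies, so the share of reads given to Slfn9 is uncertain, and Slfn8 had 0.14 ± 0.96 (adjusted p = 0.985). Among 28 genes of the list of MHC class I, Schlafen and interferon genes, Slfn9 was the only one called, and the list median was -0.28.

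In 4 called genes the WT mean was itself higher at E18.5, and the p27null mean was higher still. The WT rise with age was called for 3 of them. For Bche it was not (0.30 ± 0.19, edgeR adjusted p = 0.242), and its WT libraries overlapped between the ages. Tnni3, which encodes cardiac troponin I, was at 9.04, 13.9, 6.59 and 10.6 CPM in the WT libraries and 9.62, 16.1 and 15.0 CPM in the p27null libraries at E13.5, and at 15.5, 16.1, 18.8 and 17.6 CPM in WT and 59.9, 63.7, 58.1 and 72.8 CPM in p27null at E18.5. It was 3.75-fold higher in p27null at E18.5, with no overlap, and the interaction was 1.47 ± 0.30 (log2, SE, 95% interval 0.84 to 2.10, edgeR adjusted p = 0.0419). Bche, which encodes butyrylcholinesterase, was at 15.4, 7.87, 8.94 and 13.6 CPM in the WT libraries and 7.43, 6.42 and 8.48 CPM in the p27null libraries at E13.5, and at 13.3, 14.7, 14.9 and 13.6 CPM in WT and 25.8, 23.0, 25.4 and 28.9 CPM in p27null at E18.5. Here the E13.5 estimate was negative (-0.63 ± 0.21, adjusted p = 0.48) and part of the interaction of 1.497 ± 0.29 (adjusted p = 0.0345) came from that age. Lrrfip1, named after its values were seen, had 0.85 ± 0.13 (adjusted p = 0.00812).

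The negative side held 2 genes, and which genes were called there changed with the libraries. With 1 library left out between 0 and 17 genes were called negative, Pdcd4 in 5 of the 15 fits and Gm14681 in 1 of 15. Pdcd4 (ENSMUSG00000024975) encodes an inhibitor of translation initiation known as a tumour suppressor. It was at 78.9, 107, 90.2 and 84.5 CPM in the WT libraries and 89.3, 99.6 and 129.9 CPM in the p27null libraries at E13.5, and at 99.0, 139.9, 132 and 169.9 CPM in WT and 63.9, 74.0, 63.2 and 72.4 CPM in p27null at E18.5. The groups overlapped at E13.5, and at E18.5 every p27null library was below every WT library. Pdcd4 changed by 0.59 ± 0.16 with age in WT and by -0.64 ± 0.17 in p27null, and the interaction was -1.22 ± 0.23 (log2, SE, 95% interval -1.71 to -0.73, edgeR adjusted p = 0.0296). The other gene, Gm14681, is annotated as a pseudogene and had -1.96 ± 0.41 (adjusted p = 0.048), the called value nearest the threshold together with Ckap2l (0.93) and Tacc3. Just outside it were Cdk1, Kifc1 and Fdft1, with adjusted p of 0.0539, 0.056 and 0.056.

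The other CDK inhibitors and the genes that control p27 turnover showed no call. Cdkn1a, which encodes p21, was at 52.6, 46.3, 72.2 and 64.4 CPM in the WT libraries and 50.1, 56.2 and 33.7 CPM in the p27null libraries at E13.5, and at 17.3, 27.2, 25.5 and 21.2 CPM in WT and 33.5, 24.2, 31.5 and 27.9 CPM in p27null at E18.5, with an interaction of 0.69 ± 0.28 (log2, SE, 95% interval 0.10 to 1.29, edgeR adjusted p = 0.413). Cdkn1c, which encodes p57, had -0.35 ± 0.69 (95% interval -1.83 to 1.12, adjusted p = 0.93). That interval holds changes in both directions, so no direction of its response can be given at this number of samples. Over the 6 inhibitors other than p27 the median was -0.12. Among 13 ubiquitin ligase genes that act on p27 the median was -0.05, and the 3 with the smallest p were Ccnf at 1.22 ± 0.28 (adjusted p = 0.0807), Cks1b at 0.60 ± 0.16 (adjusted p = 0.148) and Skp2 at 0.65 ± 0.21 (adjusted p = 0.274). These 3 are known to vary through the cell cycle and were called higher at E18.5 on its own, with 1.27, 0.82 and 0.65 (log2). They were singled out after their values were seen, except Ccnf.

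Outside the cell cycle, genes of cholesterol synthesis were all positive without a call, as were the genes of the erythroid and neural crest lists described further on. None of the 22 was called for the interaction, and 22 of 22 were positive, against 49.9% of all genes tested. An unadjusted p under 0.05 was found for 13, against 9.83% of all genes tested in either direction. The list median was 0.55. Fdft1, which encodes squalene synthase, was at 129, 109.6, 117 and 118 CPM in the WT libraries and 101, 129 and 118 CPM in the p27null libraries at E13.5. At E18.5 it was at 39.3, 56.3, 45.3 and 42.4 CPM in WT and 80.5, 72.5, 77.4 and 84.8 CPM in p27null, and the interaction was 0.81 ± 0.17 (log2, SE, 95% interval 0.45 to 1.18, edgeR adjusted p = 0.056). Of the 22, 11 were called higher in p27null in the E18.5 comparison, where 2.78% of all genes were. Among these 11, the E18.5 effects were 1.09 for Fdps, 1.01 for Sqle and 0.57 for Hmgcs1, enzymes of the pathway. The median log2 CPM of the list in a library was 5.36 to 5.74 in WT and 5.37 to 5.802 in p27null at E13.5, 4.69 to 4.87 in WT at E18.5 and 5.20 to 5.55 in p27null at E18.5. With 1 library left out at a time the list median stayed between 0.48 and 0.63. Steroid synthesis genes, which use cholesterol, had a list median of 0.17 over 18 genes tested of 22, with 10 positive. The summed level of 4 steroidogenic cell markers was 161 to 266 CPM in WT and 292 to 393 CPM in p27null at E18.5, nearly all of it Hsd3b1 (123 to 241 and 269 to 365 CPM). All 4 markers were above 0 in every group, and their part in the cholesterol values was not tested.

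**Figure D4:**
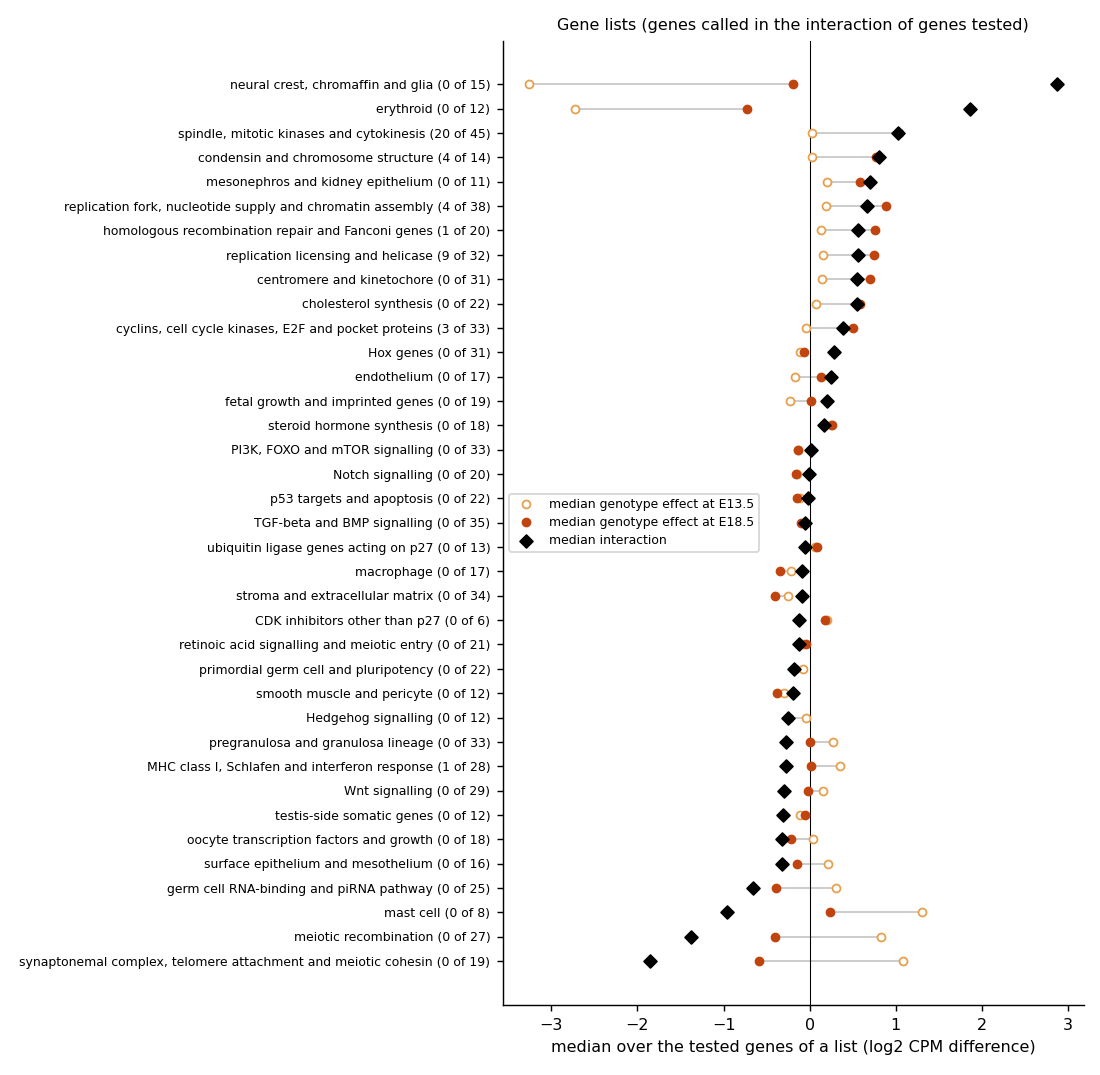
Medians over the tested genes of each of 37 lists (log2), 1 row a list, for the genotype effect at E13.5 (open circles), the effect at E18.5 (filled circles) and the interaction (diamonds), with the number called beside each name. The diamonds of the lists of spindle, condensin, replication, kinetochore and cholesterol genes lie to the right of 0 with medians from 0.55 to 1.02, and those of the meiotic lists lie to the left with medians of -1.85 and -1.38.

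Meiotic genes had the most negative list medians, with no gene called. For the synaptonemal complex and meiotic cohesins, 19 genes tested had a median of -1.85, and for meiotic recombination 27 genes had -1.38. Of these, 13 and 18 genes were negative at an unadjusted p under 0.05. Over all genes tested, 9.83% had such a p in either direction. The 13 and 18 are from the fit of all 15 libraries and were not counted again without p27null E13.5 replicate 3. Prdm9, the methyltransferase that places recombination hotspots, was at 0.885, 0.596, 0.955 and 0.824 CPM in the WT libraries and 1.59, 13.3 and 1.75 CPM in the p27null libraries at E13.5, and at 9.07, 11.3, 6.17 and 9.62 CPM in WT and 7.19, 4.03, 3.30 and 3.24 CPM in p27null at E18.5. The interaction was -3.80 ± 0.81 (log2, SE, 95% interval -5.53 to -2.07, edgeR adjusted p = 0.06). In the sample at 13.3 CPM, p27null E13.5 replicate 3, the median log2 CPM of the synaptonemal list was 5.94, against 2.29 and 3.64 in the other p27null libraries and 2.90 to 3.49 in WT at E13.5. Without that library the list medians were -0.43 and -0.48, and Prdm9 was at -2.06. The E18.5 side alone was smaller, with list medians of -0.59 and -0.40. Rec8, the meiotic cohesin, was at 49.2, 58.0, 37.0 and 51.9 CPM in the WT libraries and 35.9, 122 and 50.5 CPM in the p27null libraries at E13.5, and at 79.2, 63.0, 93.2 and 66.8 CPM in WT and 33.5, 24.8, 31.2 and 29.5 CPM in p27null at E18.5, so that p27null was below WT without overlap at E18.5. Its interaction was -1.85 ± 0.42 (adjusted p = 0.0776), and -1.16 without that library. The level of germ cell RNA-binding and piRNA genes behaved alike in this respect, with a list median of -0.66, and -0.26 without that library. Summed germ cell markers overlapped between genotypes at E18.5 (362 to 886 and 270 to 568 CPM, all 4 markers above 0), and their part in these values was not tested.

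Other lists with a median far from 0 moved strongly when single libraries were left out. Neural crest, chromaffin and glia genes had a median of 2.88 over 15 genes tested, all positive, and 1.47 without WT E13.5 replicate 1. Th, which makes the precursor of catecholamines, was at 79.1, 7.93, 3.47 and 18.9 CPM in the WT libraries and 0.730, 0.573 and 0.396 CPM in the p27null libraries at E13.5, and at 0.328, 0.869, 0.360 and 1.08 CPM in WT and 0.426, 0.671, 0.711 and 0.912 CPM in p27null at E18.5, and its interaction of 5.61 ± 1.23 (adjusted p = 0.0731) did not pass. WT E13.5 libraries were all above p27null for Th, and both genotypes were near 1 CPM or below at E18.5. The summed level of 4 chromaffin and glia markers was 12.5 to 184 CPM in WT and 3.25 to 4.92 CPM in p27null at E13.5. Erythroid genes had a median of 1.87, and -0.77 without WT E13.5 replicate 3, the library rich in haemoglobin. Mast cell genes had -0.96, and 0.22 without p27null E13.5 replicate 3. Mesonephros and kidney epithelium genes had 0.70, and 0.0045 without p27null E18.5 replicate 1.

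Somatic ovary genes showed no call for the interaction. The 33 tested genes of the pregranulosa and granulosa lineage had a median of -0.28, with 8 positive, and Foxl2, the factor that maintains this lineage, had -0.61 ± 0.55 (adjusted p = 0.789). Genes of stroma and extracellular matrix had a median of -0.09 over 34 genes, surface epithelium and mesothelium -0.32 over 16, endothelium 0.25 over 17 and macrophage -0.09 over 17. The genotype effect on the stroma list had medians below 0 at both ages, -0.25 at E13.5 and -0.40 at E18.5. At E18.5, 4 of its 34 genes were positive, against 46.05% of all genes tested. Every p27null library was below every WT library in 11 (5.17% of all genes) and above in 1 (8.72%). Signalling lists lay close to 0, with medians of -0.01 for Notch, -0.05 for TGF-beta and BMP, 0.02 for PI3K, FOXO and mTOR, -0.25 for Hedgehog and -0.30 for Wnt. Trp53 had 0.56 ± 0.16 (adjusted p = 0.191), the smallest p among 22 p53 targets and apoptosis genes, whose median was -0.02. Oocyte transcription factors and growth genes (18 tested of 26) had -0.32, primordial germ cell genes -0.18 and genes of retinoic acid signalling and meiotic entry -0.13.

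**Figure D5:**
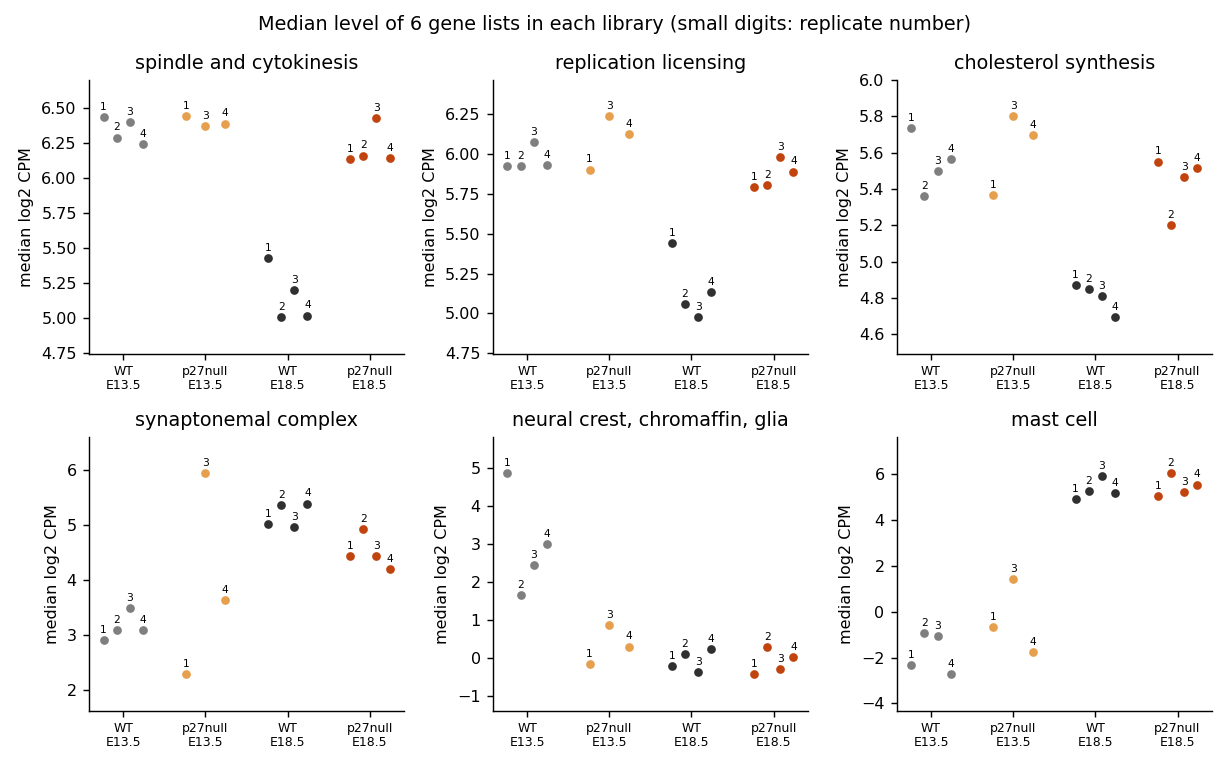
Median log2 CPM of the genes of 6 lists in each of the 15 embryonic libraries, by genotype and age, with small digits for the replicate number. Spindle genes run from 6.24 to 6.44 at E13.5 in both genotypes and at E18.5 from 5.00 to 5.43 in WT and 6.14 to 6.43 in p27null, while the synaptonemal list has 1 p27null library at 5.94 at E13.5.

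The direction of the called genes was steadier than their number. With 1 library left out at a time, between 32 and 127 genes were called, 17 were called without both E13.5 libraries numbered 3, and DESeq2 called 303 and limma-voom 160, each including all 76. With the E18.5 libraries numbered 1 and 3 alone no gene was called by edgeR (1147 at an unadjusted p under 0.05), and with those numbered 2 and 4 alone 46 were. In both of these the 74 genes were all positive, with medians of 1.02 and 1.23, and over the 28 alternatives none of the 76 changed sign. The 76 were picked by their p in these same libraries, so the kept sign describes them and is no separate test. The summed levels of the 4 germ cell and 5 pregranulosa markers overlapped between genotypes at E18.5, as given above, and their part in the cell cycle values was not tested.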

How the data were processed

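RNA from whole ovary cells was sequenced in 29 samples, of which the 15 embryonic ones were compared, grouped by genotype and age as in the sample titles. Per the file headers, the authors deposited expected counts from RSEM, which apportions ambiguous reads among Ensembl genes. The submitters' processing notes name Trim Galore, STAR 2.5.2, RSEM 1.3.0 and FastQC 0.11.5, and the genome build and strandedness are not given in the sources used here. Without strand, reads of overlapping and antisense genes cannot be told apart. The table held 51912 gene IDs, of which 51633 matched a symbol. Of its values above 0, 31.4% were not whole, and they were rounded.

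Counts were tested with edgeR 4.0.16 in R 4.3.3 (filterByExpr with a minimum count of 10 and a minimum total of 15, TMM scaling, robust quasi-likelihood fit and F test), with 1 coefficient per group over the 15 samples and contrasts for the interaction, the effect at each age and the change with age in each genotype. P-values were adjusted over all 18052 genes by Benjamini-Hochberg, and genes under 0.05 are described as called. The standard error is the log2 value divided by the square root of F, without sign. CPM use TMM-scaled library sizes, and log2 CPM a prior count of 2. The procedure was tested on artificial counts. Replicate libraries were compared in 21 pairs, and each pair differed by more than sampling noise (chi-square per degree of freedom 12.99 to 284.7).

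The genes named were Cdkn1b, Cdkn1a and Cdkn1c, up to 10 called genes at each end of the interaction and the 6 with the smallest p (mean of at least 2 CPM, no predicted names), up to 3 called genes of each of 37 lists or else the 1 with the smallest p, and genes called at E13.5; other names were chosen after values were seen. The members and lists were chosen with earlier results of these data known. Alternatives were DESeq2 1.42.0, limma 3.58.1 (voom with sample weights), RLE scaling, no filter on low counts, no robust step, thinned counts, all 29 samples in 1 fit, no haemoglobin genes, the replicate number as a block, each library left out, and both E13.5 libraries numbered 3 left out. Settings that use E18.5 pairs of numbers alone, or add those pairs as a term, were chosen after the data were seen. Some genes are not reported here.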

Additional observations from a re-analysis of the deposited data

Results flagged for a closer look

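The genotype effect differed between E18.5 and E13.5 in 76 genes by the interaction test itself, as described above. Single libraries stood apart from their group in 12 of 171 groups of values examined, where chance alone gives about 1 in 20. Only groups of 4 libraries were examined. The p27null E13.5 group, with 3 libraries, was therefore left out, and its replicate 3, described above, could not be flagged here. In p27null E18.5 replicate 3, Cdc25c was at 22.14 CPM (16.22 to 16.82 in the other libraries of the group) and Ccnb2 at 209.4 CPM (177.7 to 181.1). Trp53 was at 150.4 CPM in WT E13.5 replicate 4 (126.4 to 130.5). In WT E18.5 replicate 1, Cdkn1b was at 130.0 CPM (101.5 to 105.1), Des at 9.238 CPM (14.6 to 15.06) and Hhip, an inhibitor of Hedgehog ligands, at 0.492 CPM (0.0514 to 0.109). Hhip was also high in WT E13.5 replicate 1, at 6.637 CPM (2.146 to 2.256). Hoxd8 was at 23.64 CPM in WT E18.5 replicate 3 (30.78 to 31.71). Lyz2, a myeloid gene, was at 91.7 CPM in p27null E18.5 replicate 1 (18.99 to 29.33). In WT E13.5 replicate 3 the embryonic globin gene Hbb-y was at 53300.0 CPM (1568 to 1604), haemoglobin genes took 18.97% of counts (0.7016% to 1.048%) and the 50 most abundant genes 27.83% (10.01% to 10.72%).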

How the results depend on the processing

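The number of genes with an interaction moved with the tool and the libraries, against 76 as reported. It was 303 with DESeq2, 160 with limma-voom and 134 with all 29 samples in 1 fit. It was 2 when the replicate block was fitted, with 1 of these among the 76. Without both E13.5 libraries numbered 3 it was 17, with only E18.5 numbers 1 and 3 it was 0, and with only numbers 2 and 4 it was 46. Leaving out 1 library gave 32 to 127. The count moved by over 1.5 times without WT E18.5 replicate 1 (127), 3 (40) or 4 (47), p27null E18.5 replicate 3 (33) or 4 (36), WT E13.5 replicate 1 (37) or 2 (48), and p27null E13.5 replicate 3 (42) or 4 (32). The count of 554 at E18.5 became 1092 with DESeq2, 2061 with limma-voom, 882 with all samples, 334 with the block, 68 with numbers 1 and 3 and 166 with numbers 2 and 4, and 296 to 752 with 1 library left out (327 higher and 25 lower without WT E18.5 replicate 3, 345 in all without WT E18.5 replicate 4, 296 and 329 without p27null E18.5 replicates 3 and 4). The count of 1 at E13.5 became 159 with DESeq2, 59 with all samples and 26 with the block, and 1 to 44 with 1 library left out (44 without WT replicate 2, 2 without WT replicate 3, 3 without p27null replicate 1). The 7226 genes that changed with age in WT became 4626 with numbers 2 and 4, and 6108 to 7445 with 1 library left out. The 4547 in p27null became 1777 with numbers 1 and 3 and 2447 with numbers 2 and 4, and 3356 to 5144 with 1 library left out. Settings with fewer libraries have less to test with, and otherwise the cause was not tested. The interaction of Cdkn1b was -1.01 with numbers 1 and 3 and -0.35 with numbers 2 and 4, and -0.80 to -0.56 with 1 library left out.

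In each of these settings the 74 genes called higher were all positive with an unadjusted p under 0.05, and their median ran from 1.02 to 1.23. Because the genes were called with these libraries, this is no separate test. Of the 76, 29 were called in all 15 fits that left out 1 library. The deviations of same-numbered samples from their group means correlated by -0.101 to 0.139 in the 3 pairs at E13.5 and by 0.057 to 0.17 in the 4 pairs at E18.5, with 1 pair at each age correlating best with its own number. Not every pair was above 0.1, so the numbers were not taken as pairs, although at E18.5 all 4 correlations were positive and numbers 1 and 3 stood apart from 2 and 4 in haemoglobin and mitochondrial share in both genotypes. The change with age could not be fitted with the block. List medians changed sign in at most 9 of 37 lists under any setting, none of them a list of replication, spindle, kinetochore or condensin genes. Single genes, list medians and the numbers called on lists were compared with the values reported. Of these, 147 lost the threshold and 30 gained it. A further 120 moved by more than their spread or, for the numbers called, by more than a set factor. The other 2417 did none of these, but some of them changed sign. The Hox list median of 0.28, for example, was -0.35 without p27null E18.5 replicate 1, a move within its spread. No called value changed sign, but values that were not called did. The medians of the erythroid (1.87, then -0.77) and mast cell lists (-0.96, then 0.22) changed sign without WT and p27null E13.5 replicate 3 in turn, Hbb-y (3.07, then -0.12) without WT E13.5 replicate 3, and Cdkn1c (-0.35, then 0.05) with numbers 1 and 3 alone. Depth sets a floor of 0.121 to 0.213 CPM, and the number of samples limits the rest.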

Other observations

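After birth none of the 74 genes called higher was called for genotype. In a fit of all 29 samples, 73 of the 74 were higher in p27null ovary at postnatal day 8, where 51.2% of all genes tested were, with a median effect of 0.16 (log2, range -0.0006 to 0.78). At 12 weeks 52 of 74 were higher, against 47.6% of all genes, with a median of 0.10 (range -0.49 to 0.36). edgeR called 0 of the 74 at either age. At an unadjusted p under 0.05 there were 9 of 74 at postnatal day 8 (5.62% of all genes) and 4 of 74 at 12 weeks (10.3% of all genes). Of all genes tested, 0 were called at postnatal day 8 and 68 at 12 weeks. Cdkn1b, the targeted gene, was tested in this fit and so was not called at postnatal day 8 either. The lack of calls at that age therefore cannot show that the effects on the 74 genes ended. The postnatal effects were not tested against the E18.5 effect.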
